A study of Mus musculus with 36 samples.

Results

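Day 4 of neurobasal differentiation was examined by comparing *Tet1* knockout (KO) with wild type (WT) cells in the 4 of 36 RNA-seq libraries that carry these genotypes and this day in their labels. The libraries were 1 each of lines KO1, KO15, WT7 and WT34, so each genotype was represented by 2 lines and each line by 1 library. By the study's methods, the lines were male mouse embryonic stem cell (ESC) lines derived from blastocysts of the (B6 x 129S6)F1 Tet1tm1Koh strain, and the WT lines carried no mutant allele. All 4 cultures shared the same treatment: feeder-depleted ESCs grown in serum were moved to gelatin in serum-free N2B27 medium, basic FGF was present until day 3 and was then withdrawn, so the cells of day 4 had spent 1 day without it. No signalling inhibitor was named for these samples. Day 4 was sampled in experiment 2 only, whereas day 3 gave 8 and day 5 gave 6 libraries of these lines from experiments 1 and 2, and on day 5 experiment 2 held KO1 and WT7 alone. The cultures were measured in bulk, so fewer cells of a type and less RNA per cell cannot be told apart. P-values measured the spread between single libraries of 2 lines per genotype, with the spread estimated from all libraries.

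TET1 is an enzyme that oxidises methylated cytosines and can also act at chromatin through partner proteins. In serum-free medium without instructive signals, ESCs leave naive pluripotency, pass through a state that resembles the epiblast, and mostly become neural progenitors of anterior character. In the embryo, Wnt, Nodal and BMP signals instead direct epiblast cells into the primitive streak, the source of mesoderm and definitive endoderm, and from there into the node, heart, somites and gut. The comparison asked how far KO and WT cells had separated along these alternatives 1 day before the end point of the protocol.

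*Tet1* itself was the first check. Levels are given as CPM (counts scaled to the size of each library and between libraries), so that they compare a gene across libraries and not genes with each other. The CPM of *Tet1* (ENSMUSG00000047146, chr10:62804570-62908996, mm10) were 62.8 in KO1 and 67.8 in KO15 and 204 in WT7 and 191 in WT34. The gene was lower in both KO libraries (log2 fold change -1.60, SE 0.15, adjusted p = 2.39e-08 by the edgeR quasi-likelihood test). The deposited TPM values, which allow for transcript length, lay closer together, with 16.3 in the lower KO library and 24.4 in the lower WT library, and on this scale *Tet1* did not pass (limma on log2(TPM + 1), difference -0.62). The gene-level files do not say which part of the transcript the remaining reads cover. Total counts were between 12335805 and 14179666 per library, and mitochondrial genes took between 1.54% and 1.94% of them. As log2(CPM + 1), lines of the same genotype, with 1 library each, differed by a median of 0.124 (KO) and 0.117 (WT). The genotype means, over 2 libraries each, differed by a median of 0.193. Means vary less than single libraries, so these values are not measured alike. The label mESC names the starting cell. Its core factor *Pou5f1* was still at 217 to 327 CPM, whereas the naive markers *Zfp42*, *Klf4* and *Esrrb* were between 0.668 and 4.44 CPM in all 4 libraries. These markers were named from 17 tested naive genes after their values were seen. Not all members were this low: *Nanog* was at 64.2 and 57.7 CPM in KO and 95.3 and 98 CPM in WT.

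Of 21601 genes tested, 735 were higher (3.4%) and 925 lower (4.28%) in KO, together 7.68%. Calls needed an adjusted p under 0.05 and a change of more than 1 on the log2 scale. The libraries of the 2 genotypes did not overlap at 1659 of the 1660 called genes. Over all tested genes they did not overlap at 58.8%, so absence of overlap alone says little with 2 libraries a side. Changes over 4-fold made up 386 of the higher genes (52.5%) and 368 of the lower genes (39.8%). Many of the changes were between detection and near absence: the lower group averaged under 1 CPM at 271 of the higher genes (36.9%) and at 333 of the lower genes (36%). Protein-coding genes were 90.7% of the called genes in each direction and 73.9% of all tested genes. An unadjusted p under 0.05 was reached by 5862 genes (27.1%).

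Promoter sequences are shown for 6 of the lineage factors that the results turn on: the 3 with the highest and the 3 with the lowest log2 fold change among the passing markers for which RefSeq gave a promoter. Among them, *Nkx2-5* rests on few counts and lost its call without KO1, WT7 or WT34. TET1 acts on CpG dinucleotides, and these promoters span a wide range of CpG content. Each line gives the 250 bases upstream of the annotated start (GRCm38.p6, strand of the gene, 5′ to 3′), with CpG in capitals.
Isl1: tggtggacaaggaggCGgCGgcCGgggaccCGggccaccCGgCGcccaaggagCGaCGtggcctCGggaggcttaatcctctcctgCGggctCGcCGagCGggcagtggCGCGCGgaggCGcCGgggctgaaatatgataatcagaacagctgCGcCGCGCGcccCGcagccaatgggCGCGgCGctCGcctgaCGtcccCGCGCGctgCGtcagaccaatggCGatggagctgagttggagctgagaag
Nkx2-5: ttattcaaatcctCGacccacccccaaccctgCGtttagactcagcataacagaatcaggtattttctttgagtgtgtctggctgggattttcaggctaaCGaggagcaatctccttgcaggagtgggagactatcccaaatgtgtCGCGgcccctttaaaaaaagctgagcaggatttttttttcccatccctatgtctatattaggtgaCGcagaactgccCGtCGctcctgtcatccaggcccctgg
Cer1: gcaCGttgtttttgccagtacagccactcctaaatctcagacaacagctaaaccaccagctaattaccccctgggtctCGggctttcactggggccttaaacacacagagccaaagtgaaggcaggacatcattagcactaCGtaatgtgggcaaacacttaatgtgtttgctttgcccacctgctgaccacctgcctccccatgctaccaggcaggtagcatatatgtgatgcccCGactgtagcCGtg
Wnt1: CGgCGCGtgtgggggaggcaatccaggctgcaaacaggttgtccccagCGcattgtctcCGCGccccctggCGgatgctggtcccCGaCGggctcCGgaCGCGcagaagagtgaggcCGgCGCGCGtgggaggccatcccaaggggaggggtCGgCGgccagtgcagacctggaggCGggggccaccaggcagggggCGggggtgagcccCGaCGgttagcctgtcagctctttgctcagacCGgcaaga
En1: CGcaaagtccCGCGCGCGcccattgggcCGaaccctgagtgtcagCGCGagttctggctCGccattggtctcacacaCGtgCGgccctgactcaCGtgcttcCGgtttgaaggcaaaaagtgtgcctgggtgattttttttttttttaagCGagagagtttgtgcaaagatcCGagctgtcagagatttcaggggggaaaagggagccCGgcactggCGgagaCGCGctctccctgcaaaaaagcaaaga
Pax6: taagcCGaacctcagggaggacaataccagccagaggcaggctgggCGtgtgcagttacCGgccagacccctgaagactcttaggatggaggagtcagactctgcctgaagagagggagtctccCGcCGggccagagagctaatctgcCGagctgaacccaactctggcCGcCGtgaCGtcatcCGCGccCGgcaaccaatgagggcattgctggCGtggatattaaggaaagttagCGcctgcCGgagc
*Isl1* (chr13:116309689-116309938, minus strand) holds 33 CpG in this stretch, *Wnt1* (chr15:98789607-98789856, plus strand) 23, *En1* (chr1:120602237-120602486, plus strand) 19, *Pax6* (chr2:105668646-105668895, plus strand) 15, *Nkx2-5* (chr17:26841566-26841815, minus strand) 8 and *Cer1* (chr4:82885152-82885401, minus strand) 5. Factors that were higher in KO thus included both the most and the least CpG-rich of the 6. Over the 12405 tested genes with a RefSeq promoter, the median was 19 CpG in 300 bases. In the 300 bases around each start, both strands were searched for 6 motifs, none of which contains another. These were CTTTGA for the TCF/LEF factors that mediate Wnt signals, AGGTGTGA for T-box factors such as *T* and *Eomes*, AGATAAG for zinc finger factors such as *Gata4*, TGTTTAC for forkhead factors such as *Foxa2*, CATTGTT for HMG-box factors such as *Sox17*, and ATTTGCAT for POU factors such as *Pou5f1*. *Nkx2-5* held the TCF/LEF letters, which are in 12.4% of all these promoters, and *Isl1* those of the zinc finger factors, which are in 1.94%. No match was found in the windows of *Cer1*, *Wnt1*, *En1* and *Pax6*. RefSeq promoters were at hand for 505 of the higher genes (68.7%), 619 of the lower genes (66.9%) and 57.4% of all tested genes, too few for a comparison of CpG or motif content between the groups.

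Primitive streak factors were higher in KO at 12 of 15 tested members and lower at none, against 3.4% and 4.28% of all genes, and the median log2 fold change of the list was 2.48, against 0.00 over all genes. *T* (brachyury), the T-box factor that marks the streak and early mesoderm, stood at 305 CPM in KO1 and 372 in KO15 against 58.4 in WT7 and 62.8 in WT34 (log2 fold change 2.48, SE 0.49, adjusted p = 0.000638). WT cells were thus not devoid of *T* transcripts, and the KO libraries lay well above them. *Eomes*, a T-box factor required for endoderm and anterior mesoderm, was measured at 209 and 154 CPM in KO and at 23.2 and 21.3 CPM in WT (log2 fold change 3.03, SE 0.50). *Lhx1*, a LIM factor of the anterior streak and its derivatives, reached 314 and 246 CPM in KO and 21.5 and 22.7 CPM in WT (3.66, SE 0.59). *Mixl1* (log2 fold change 2.67), *Evx1* (3.02), *Gsc* (2.44) and *Fgf8* (1.77) were higher as well, and so was *Sp5* (2.27), a Wnt-induced repressor. The factors that mark cells leaving the streak rose too: *Mesp1* by 3.36, *Mesp2* by 4.25 and *Tbx6* by 2.76 on the log2 scale. *Wnt3*, the ligand that initiates the streak, had 21.5 and 20.2 CPM in KO and 7.65 and 9.65 CPM in WT, without overlap, but did not pass (log2 fold change 1.27, adjusted p = 0.0554). Without WT34 the adjusted p of *Gsc* was 0.0504, and without WT7 that of *Mesp1* was 0.0505.

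WT cells carried more streak RNA on day 4 than on day 3, and this needs the experiment beside it. The 15 streak factors summed to 230 and 229 CPM in the WT libraries of day 4 and to 115 to 137 CPM in the 4 of day 3. On day 5 the sum was 227 CPM in the single WT library of experiment 2 and 102 and 94 CPM in those of experiment 1. *T* showed the same split, with a mean of 60.6 CPM in WT cells of day 4, and with 79.8 CPM on day 5 in experiment 2 against 8.4 and 9.58 CPM in experiment 1. The rise of the WT sum from day 3 to day 4 was thus seen within experiment 2. Since day 4 was measured in experiment 2 alone, it is not known whether WT cells of experiment 1 reached this level on day 4. The KO libraries of day 4 summed to 1204 and 1180 CPM, above every WT library of days 3 to 5.

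Definitive endoderm genes rose at 18 of 24 tested members and fell at none (median log2 fold change 1.92, or 1.98 with genes at few counts taken at their bound or ratio). *Sox17*, the HMG-box factor that specifies definitive endoderm, was measured at 64.8 CPM in KO1 and 72.2 in KO15 and at 4.45 in WT7 and 8.17 in WT34 (log2 fold change 3.43, SE 0.48, adjusted p = 1e-05). *Foxa2*, a pioneer factor of endoderm and node, stood at 126 and 111 CPM in KO and 9.73 and 9.65 CPM in WT (3.61, SE 0.42). *Cer1*, a secreted antagonist of Nodal, BMP and Wnt made by anterior endoderm, stood at 120 and 131 CPM in KO and 7.28 and 5 CPM in WT (4.36, SE 0.64). Both KO libraries exceeded both WT libraries by a wide margin at each of these genes. *Foxa1* (4.88), *Prdm1* (4.17), *Hhex* (2.83), *Trh* (3.70) and the carboxypeptidase gene *Cpm* (4.50) behaved alike, and the chemokine receptor gene *Cxcr4*, often used to sort endoderm, rose less (1.18). Summed over the 24 members, the list gave 4194 and 3928 CPM in KO and 1226 and 1374 CPM in WT. *Gata4* and *Gata6*, zinc finger factors of endoderm and heart, passed with log2 fold changes of 1.85 and 1.98, but WT34 carried more of both than WT7 (22.7 against 8.54 CPM for *Gata4*), and without WT7 the adjusted p was 0.251 and 0.203, and without KO1 0.11 and 0.0961.

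Genes of the node and notochord, the midline organiser that arises from the anterior streak, were higher at 12 of 14 tested members (median log2 fold change 2.60). All 14 had no overlap between genotypes, against 58.8% of all tested genes. *Shh*, the midline signal, was at 14 and 14.3 CPM in KO and at 0.445 and 0.423 CPM in WT (log2 fold change 5.00, SE 0.66, adjusted p = 8.88e-06). The 2 lines of each genotype gave nearly the same value. *Foxj1*, the master factor of motile cilia, stood at 78.2 and 74.4 CPM in KO and 11.7 and 11.6 CPM in WT (2.71, SE 0.37), and *Pkd1l1*, which encodes a ciliary sensor of the node, at 105 and 104 CPM against 4.23 and 4.3 CPM (4.62, SE 0.60). *Noto*, a homeobox factor of the notochord, rose by 3.98, and the BMP antagonists *Chrd* and *Nog* by 2.99 and 2.17. *Enkur* and *Kif27*, both cilium genes, rose by 3.79 and 2.45. *T*, *Foxa2*, *Cer1* and *Nodal* stand in this list and in others.

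Cardiac progenitor factors were higher at 11 of 19 tested members (median 2.27, or 1.92 with such genes at their bound), and the sarcomere genes of differentiated heart muscle at 2 of 18 (median -0.20). *Isl1*, a LIM factor of the second heart field and also of motor neurons, was at 6.98 and 8.29 CPM in KO and at 0.148 and 0.211 CPM in WT (log2 fold change 5.34, SE 0.76, adjusted p = 1.12e-05). *Tbx20* (2.85), *Foxf1* (2.92), *Fgf10* (2.91) and *Smarcd3* (1.72) also rose. *Tbx5* (-1.86), *Irx4* (-0.64) and *Mef2c* (-0.23) had negative log2 fold changes and did not pass. *Nkx2-5*, a core cardiac factor, was barely detected in KO, with 8 counts over both libraries against 0 in WT, at least 2.67-fold higher, and it did not pass without KO1, WT7 or WT34 (adjusted p = 0.165 to 0.23). *Hand2* did not pass, with a ratio of KO to WT counts of 17 (95% exact interval 2.67 to 711), and *Hand1*, at 1.85 and 1.84 CPM in KO and 0 and 0.282 CPM in WT, passed with all 4 libraries (adjusted p = 0.0359) and lost the call without any 1 of them (0.0638 to 0.239). Of the sarcomere genes, *Myl7*, an atrial myosin light chain, rose by 3.81, and *Myh7* by 1.30 with an adjusted p of 0.0508 to 0.152 when a library was left out. *Tnnt2* stood at 0.752 and 0.767 CPM in KO and 0.297 and 0.493 CPM in WT and did not pass, and the smooth muscle actin gene *Acta2* fell by 1.94 on the log2 scale. The progenitor count fell to 7 without KO1 and to 6 without WT7.

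Paraxial mesoderm and somite genes were higher at 8 of 19 tested members (median 2.33, or 2.52 with such genes at their bound) and lower at none. *Foxc2*, a forkhead factor of paraxial and intermediate mesoderm, was at 27.6 and 34.5 CPM in KO against 1.56 and 0.986 CPM in WT (log2 fold change 4.60, SE 0.56, adjusted p = 1.21e-06), and its relative *Foxc1* rose by 3.48. *Tbx6*, which commits cells to paraxial mesoderm, was at 14.4 and 23.2 CPM in KO and 2.08 and 3.45 CPM in WT. KO15 held more *Tbx6* than KO1, and both were above WT. The Notch ligand genes of the presomitic mesoderm, *Dll1* and *Dll3*, rose by 1.70 and 2.33, and *Aldh1a2*, which makes retinoic acid in somites, by 3.14.

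Of 19 blood and endothelial genes, 3 rose: *Kdr* (2.53), *Hhex* (2.83) and *Gata1*. *Gata1*, the erythroid GATA factor, was at 15.5 and 13.5 CPM in KO and 0.371 and 0.0704 CPM in WT, the highest log2 fold change of the named genes with counts in every library (6.01, SE 0.82, adjusted p = 6.51e-06). *Tal1*, a factor required for the start of blood formation, was at 0.0684 and 0.0767 CPM in KO and 0.371 and 0.352 CPM in WT and did not pass.

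Genes of the epithelial to mesenchymal transition and of mesenchyme were higher at 8 of 24 tested members and lower at 1 (median 0.65). *Snai1*, a repressor that drives this transition, was at 39.3 and 37 CPM in KO and 6.31 and 8.52 CPM in WT (log2 fold change 2.36, SE 0.25, adjusted p = 1.48e-07). N-cadherin (*Cdh2*) rose by 1.50, fibronectin (*Fn1*) by 1.60, vimentin (*Vim*) by 1.18 and *Twist1* by 1.87, and of the tight junction genes *Cldn3* fell by 1.59 and *Cldn6* rose by 1.54. *Cdh1*, the E-cadherin gene that this transition usually lowers, was not lower: it had 665 and 638 CPM in KO and 374 and 410 CPM in WT, a log2 fold change of 0.73 that did not reach the fold threshold (adjusted p = 8.25e-06). The keratin genes of simple epithelia rose beside it, with *Krt8* at 811 and 729 CPM in KO and 159 and 220 CPM in WT (2.02, SE 0.21).

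Anterior neural and eye field genes were lower in KO at 11 of 32 tested members and higher at none (median log2 fold change -1.04, or -1.12 with such genes at their bound). *Sox1*, the earliest definitive neural marker, was at 0.547 CPM in KO1 and 3.22 in KO15 and at 78.2 in WT7 and 67.5 in WT34 (log2 fold change -5.31, SE 0.48, adjusted p = 1.15e-08). KO1 held less *Sox1* than KO15, and both were far below WT. *Sox2*, shared by pluripotent and neural cells, was at 5.68 and 6.98 CPM in KO and 125 and 126 CPM in WT (-4.31, SE 0.35). *Pax6*, a factor of forebrain and eye, was at 0.205 and 0.23 CPM in KO and 12.8 and 16.3 CPM in WT (-6.02, SE 0.56). *Lhx5* (-4.57), *Hesx1* (-4.39), *Sox3* (-2.31), *Pou3f2* (-3.13) and the neural proteoglycan gene *Ncan* (-4.29) were lower too. *Fezf2*, a forebrain factor, had no count in KO and 145 counts in WT, at least 48.3-fold lower in KO, and *Fezf1* had a ratio of KO to WT counts of 0.0233 (95% exact interval 0.00277 to 0.0866).

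Other anterior genes did not pass. *Otx2*, expressed in epiblast, anterior endoderm and forebrain alike, was at 138 and 112 CPM in KO and 126 and 136 CPM in WT, and the genotypes overlapped (log2 fold change -0.07, SE 0.25, adjusted p = 0.915). *Six3*, of the most anterior neural plate, was at 12.2 and 9.51 CPM in KO and 20 and 29.2 CPM in WT and did not pass (-1.18, adjusted p = 0.0636). The neural stem cell filament gene *Nes* stood at 148 and 140 CPM against 193 and 222 CPM, a log2 fold change of -0.53 below the fold threshold.

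Midbrain and hindbrain genes were lower at 9 of 23 tested members and higher at 4 (median -0.52). *Wnt1*, a ligand made at the boundary between midbrain and hindbrain, had no count in KO and 14.4 and 8.17 CPM in WT, at least 103-fold lower. *En1* was at 0.342 and 0 CPM in KO and 51.1 and 30.4 CPM in WT (log2 fold change -7.76, SE 0.60, adjusted p = 1.07e-09), *Pax2* at 0.0684 and 0.23 CPM against 25.7 and 18.2 CPM (-7.16, SE 0.63), and *Pax5* had a ratio of KO to WT counts of 0.00449 (95% exact interval 0.000542 to 0.0163). WT7 held more of *En1*, *Wnt1*, *Pax2* and *Pax5* than WT34, and both WT libraries were far above KO. The 4 that were higher were *Fgf8*, *Irx1*, *Hoxb1* and *Hoxb2*, of which *Fgf8* is also a streak gene and the Hox genes belong to the hindbrain and to posterior mesoderm. *Hoxb1* stood at 3.9 and 6.37 CPM in KO and 0.371 and 0.352 CPM in WT, and its adjusted p was 0.111 to 0.153 without KO15, WT7 or WT34. The count of lower members was 5 without KO1 and 5 without WT7.

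Neuronal genes fell at 14 of 31 tested members (median -1.04, or -1.08 with such genes at their bound), with *Isl1* the only member that rose. *Tubb3*, the neuronal tubulin gene, was at 9.64 and 11 CPM in KO and 66.9 and 60.2 CPM in WT (log2 fold change -2.63, SE 0.25, adjusted p = 3.25e-08). *Elavl3*, an RNA-binding protein gene of new neurons, was at 0.821 and 0.691 CPM in KO and 20.3 and 19.4 CPM in WT (-4.69, SE 0.45), and the proneural factor *Neurog2* fell by 3.95. *Myt1l* had 3 counts in KO, a ratio to WT of 0.0252 (95% exact interval 0.00513 to 0.0755). Without KO1, 9 members fell.

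Of 17 formative and primed genes, which mark the epiblast before gastrulation, 8 fell and 3 rose (median -0.96). *Utf1* was at 8.82 and 12 CPM in KO and 55.7 and 52.9 CPM in WT (log2 fold change -2.39, SE 0.24), *Pim2* at 91.2 and 94.8 CPM against 376 and 369 CPM, and *Sall2*, *L1td1*, *Slc7a3* and *Foxd3* fell by 1.38, 1.17, 1.19 and 1.74. *Fgf5*, the classical epiblast marker, went the other way, with 177 and 111 CPM in KO and 61 and 58.8 CPM in WT (1.27, or 0.91 without KO1). Of 17 naive genes, *Fgf4* and *Sox2* fell and *Dppa4* rose, the last not without KO15 (adjusted p = 0.225). *Pou5f1* was at 217 and 236 CPM in KO and 327 and 324 CPM in WT (-0.52, adjusted p = 0.0576), and *Nanog* at 64.2 and 57.7 CPM against 95.3 and 98 CPM (-0.66, adjusted p = 0.247); neither passed. Germline and piRNA genes passed at none of 19 members, and of 12 primordial germ cell genes *Prdm1*, *Ifitm1* and *Tfap2c* rose, of which *Prdm1* is also an endoderm gene and *Tfap2c* lost the call without KO1, KO15 or WT7.

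Among the Wnt pathway, 6 of 32 ligands and receptors rose and 2 fell (median 0.02), 4 of 19 antagonists and nuclear factors rose and 1 fell, and 6 of 17 target genes rose. *Wnt5a*, a ligand of non-canonical signalling in the streak and tail, was at 34.7 and 40.7 CPM in KO and 9.28 and 5.14 CPM in WT (log2 fold change 2.39, SE 0.38, adjusted p = 5.02e-05). *Lgr5*, the R-spondin receptor gene, was at 31.2 and 28.5 CPM against 1.56 and 1.34 CPM (4.36, SE 0.49), and *Rspo3* rose by 3.35. The Wnt antagonist genes *Dkk1* and *Frzb* rose by 2.47 and 1.42, whereas *Sfrp2*, an antagonist of the neural plate, was at 7.32 and 9.67 CPM in KO and 38.2 and 37.7 CPM in WT (-2.16, SE 0.13). The activating nuclear factors *Lef1* and *Tcf7l2* rose by 1.36 and 1.40, and the repressive *Tcf7l1* stood at 91.3 and 90.3 CPM in KO and 100 and 98.9 CPM in WT (-0.13, adjusted p = 0.677). *Axin2*, the most general target of canonical Wnt signalling, had 38.9 and 46.6 CPM in KO and 55.2 and 38.5 CPM in WT. Its values overlapped and did not pass (-0.13, SE 0.26, adjusted p = 0.818), while the target *Sp5* was at 35.4 and 42.5 CPM in KO and 10.4 and 5.77 CPM in WT.

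In the Nodal pathway 6 of 20 members rose and none fell (median 0.74). *Nodal* was at 23.8 and 20.1 CPM in KO and 9.06 and 9.65 CPM in WT (log2 fold change 1.23, SE 0.34, adjusted p = 0.0121), with an adjusted p of 0.066 to 0.0868 without KO1, WT7 or WT34. Its feedback inhibitor *Lefty2* was at 15.9 and 19.8 CPM in KO and 2.38 and 2.54 CPM in WT (2.85, SE 0.54), and the coreceptor gene *Cfc1* rose by 4.31. Of the BMP ligands and antagonists, *Bmp2* (2.73), *Bmp5* (3.21), *Bmp7* (1.58), *Chrd* and *Nog* rose, *Bmpr1b* fell by 1.68, and *Grem1* had no count in KO and 101 counts in WT, at least 33.6-fold lower. *Bmp4* was at 7.8 and 7.6 CPM in KO and at 5.35 CPM in both WT libraries and did not pass (adjusted p = 0.289). The Id genes, the direct targets of BMP, moved apart: *Id1* was at 31.7 and 25.3 CPM in KO and at 10.3 CPM in both WT libraries (1.47, SE 0.19), and *Id2* at 3.56 and 4.37 CPM against 20.9 and 21.9 CPM (-2.43, SE 0.25). Among 13 BMP response genes 1 rose and 2 fell, and the other that fell, *Id4*, lost the call without any 1 of the 4 libraries (adjusted p 0.102 to 0.279).

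Of 23 FGF ligands, receptors and feedback genes, 8 rose and 3 fell (median 0.40). The ligand genes divided, with *Fgf3*, *Fgf8* and *Fgf10* higher (2.26, 1.77 and 2.91) and *Fgf15* and *Fgf4* lower (-2.91 and -1.96). *Fgfr2* was at 38 and 29.5 CPM in KO and at 122 CPM in both WT libraries (-1.85, SE 0.25). The feedback gene *Dusp4* was at 176 and 171 CPM in KO and 62.7 and 57 CPM in WT (1.54, SE 0.19), and *Spry4* and *Etv4* rose by 1.46 and 1.29. In the Notch list, the ligand genes *Dll1*, *Dll3* and *Jag1* and the targets *Hey1* and *Nrarp* rose, and *Hes3* and *Hes5*, targets used by neural progenitors, fell by 5.13 and 1.96. Among 20 retinoic acid genes, *Cyp26a1*, the enzyme that clears it, was at 143 and 102 CPM in KO and 14.8 and 20.5 CPM in WT (2.79, SE 0.39). The binding protein gene *Crabp2* fell, from 79.6 and 73.7 CPM in WT to 7.73 and 9.97 CPM in KO (-3.12, SE 0.22), while *Aldh1a2* and *Rarb* rose.

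**Figure D1:**
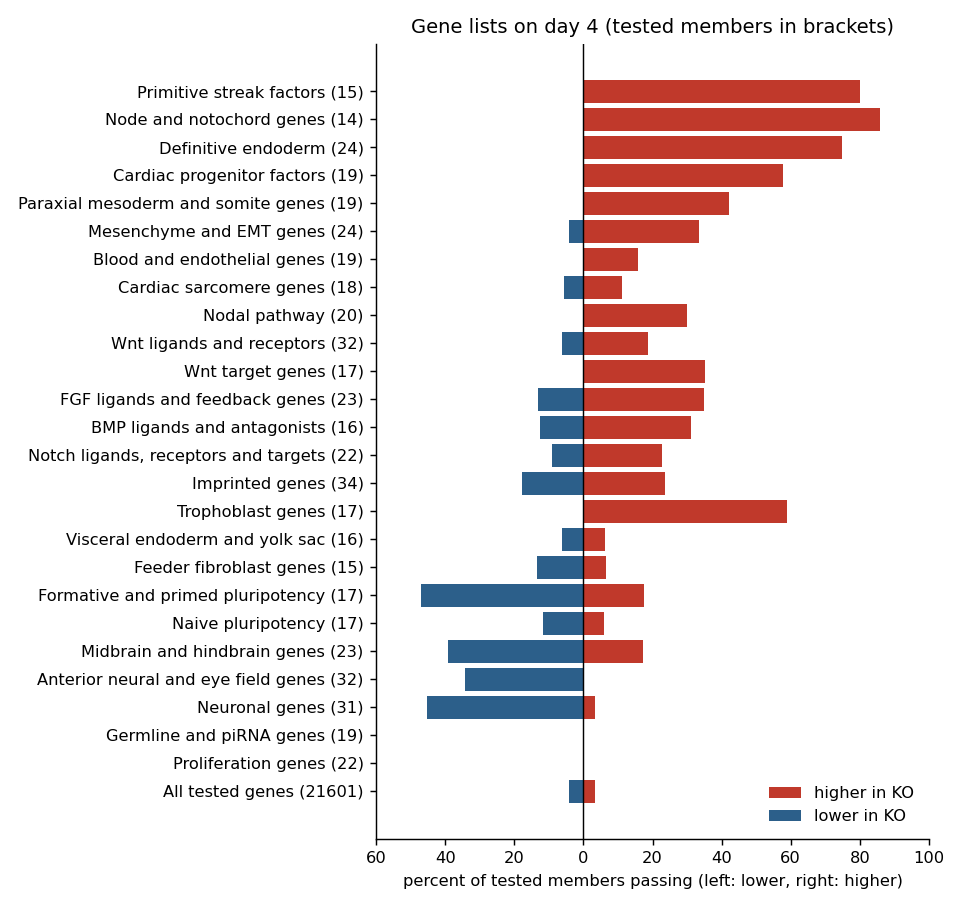
Percent of tested members of 25 gene lists that were higher (red) or lower (blue) in KO on day 4, with all tested genes as the last bar pair (3.4% and 4.28%). Node, streak and endoderm lists have most of their members higher. The anterior neural, neuronal and formative lists have more members lower than higher, and most anterior neural and neuronal members did not pass.

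Markers of other cell types were read beside these lists. Trophoblast genes rose at 10 of 17 tested members, and their sum was 309 and 256 CPM in KO and 85.6 and 97.5 CPM in WT. *Eomes*, *Cdx2*, *Hand1*, *Gata3*, *Tfap2c* and *Krt7* among them are also genes of streak, mesoderm or epithelium, while the placental markers *Elf5*, *Esx1*, *Tpbpa* and *Gcm1* were at 0 to 1.48 CPM in all 4 libraries. Visceral endoderm genes passed at 2 of 16 members. *Lrp2* encodes an endocytic receptor also used by neuroepithelium. It was at 105 and 113 CPM in KO and 1306 and 1396 CPM in WT (log2 fold change -3.63, SE 0.19). *Cited1* rose by 1.24. The yolk sac markers *Afp* and *Ttr*, picked after their values were seen, were under 1 CPM throughout. Other members were expressed: with *Lrp2* included, the 16 members summed to 451 and 463 CPM in KO and 1609 and 1788 CPM in WT. Feeder fibroblast genes summed to 82.3 and 78.4 CPM in KO and to 99.3 and 112 CPM in WT, with *Thy1* and *Col1a2* lower (-2.34 and -1.71) and *Postn* higher (2.80) among 15. *Cited1* and *Postn* did not pass without WT7 (adjusted p = 0.0658 and 0.131). Non-neural ectoderm genes rose at 6 of 15, of which *Krt8*, *Krt18* and *Krt19* are in the endoderm list too. The part of trophoblast, visceral endoderm or feeder RNA in the other results was not tested. Of 21 Hox and Cdx genes 4 rose, and of these *Cdx2*, at 2.67 CPM in KO1 and 11 in KO15, did not pass without KO15 (adjusted p = 0.11).

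Imprinted genes changed in both directions, with 8 of 34 higher and 6 lower. *H19*, expressed from the maternal allele, was at 69.5 and 61.2 CPM in KO and 12.4 and 14.7 CPM in WT (log2 fold change 2.27, SE 0.30, adjusted p = 5.37e-06), and its paternally expressed neighbour *Igf2* rose by 1.24. *Phlda2* (2.46), *Asb4* (3.24) and *Peg10* (1.32) rose as well. *Mest*, which is paternally expressed, was at 168 and 141 CPM in KO and 966 and 551 CPM in WT (-2.30, SE 0.32), and *Snrpn* fell by 1.27. Collagen and laminin chain genes rose at 3 of 30 and fell at 5, among them *Col18a1* (-1.64) and *Lamb3* (1.94). In the lists of general cell functions no gene of cholesterol synthesis (24 tested), glycolysis (21), proliferation (22) or the p53 response (17) passed, although some members differed by less than the fold threshold: *Mcm3* was at 254 and 250 CPM in KO and 342 and 322 CPM in WT (-0.40, adjusted p = 6.87e-05). *Cbx7* and *Phf19* fell among 28 Polycomb genes (-1.22 and -1.31), and of the TET and DNMT list only *Tet1* passed. *Dnmt3b* stood at 477 and 453 CPM in KO and 793 and 731 CPM in WT, a log2 fold change of -0.71 under the threshold.

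Single genes with the largest changes were partly members of these lists. Among called genes without overlap and with a mean of at least 5 CPM in the higher genotype, the highest log2 fold changes beside those of *Gata1*, *Isl1*, *Shh*, *Foxa1*, *Pkd1l1*, *Foxc2* and *Cpm* were those of *Samd3* (5.72), *Kcnk16* (5.16), *Rasgrp3* (4.72), *Col13a1* (4.64) and the glutathione peroxidase gene *Gpx2* (4.54). Under the same limits the lowest were those of *Wnt1*, *Fezf2*, *En1*, *Pax5*, *Pax2*, *Pax6* and *Sox1*, with *Rfx4* (-5.91), a ciliary factor of the neural tube, *Hes3* (-5.13), *Gmnc* (-4.82) and *Wnt8b* (-4.74). *Tpm3-rs7* (chr14:113314608-113316754, mm10) was at 0.957 and 1.53 CPM in KO and 125 and 126 CPM in WT, with log2 fold changes of -6.96 on day 3, -6.66 on day 4 and -6.54 on day 5. It is a related sequence of *Tpm3*, between which reads can be split, so its value is uncertain. Abundant genes changed too: the lactate transporter gene *Slc16a1* was at 1410 and 1294 CPM in KO and 328 and 332 CPM in WT (2.04, SE 0.10, adjusted p = 2.81e-12), and *Amot*, which encodes a junctional regulator of Hippo signalling, at 671 and 528 CPM against 94.2 and 97.4 CPM (2.65, SE 0.18).

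Marker sets that the study took from an atlas of mouse gastrulation gave the following counts, and some of these sets share genes with the lists above. Endoderm markers rose at 45 of 125 and fell at 2, mesoderm markers rose at 30 of 79 and fell at 1, and extraembryonic mesoderm markers rose at 32 of 123 and fell at 1. Ectoderm markers rose at none of 49 and fell at 17, and epiblast markers rose at 2 of 73 and fell at 14. The primitive streak set of the atlas moved both ways, with 10 of 38 higher and 7 lower. Visceral endoderm markers rose at 37 of 491 and fell at 8, and extraembryonic ectoderm markers rose at 27 of 275 and fell at 18. Primordial germ cell markers rose at 28 of 91 and fell at 2, and neuromesodermal progenitor markers rose at 19 of 101 and fell at 13. Non-neural ectoderm markers rose at 6 of 55 and fell at 9, and angioblast markers rose at 7 of 116 and fell at 6. Over all genes the shares were 3.4% higher and 4.28% lower.

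The day 4 effects were set against those of day 3, the day with the higher median in the streak list. The difference between the KO effects of day 4 and day 3 was tested in the same model, and 470 genes had a higher (2.18%) and 460 a lower (2.13%) effect on day 4, together 4.31%. On day 3 alone, 451 genes were higher (2.09%) and 405 lower (1.87%) in KO, together 3.96%. The streak list had 10 members higher on day 3, 12 on day 4 and 8 on day 5 (2 were lower on day 5), but its median log2 fold change was 4.28 on day 3, 2.48 on day 4 and 1.38 on day 5, and 7 of its 15 members had a lower effect on day 4 than on day 3. *Mesp2* and *Tbx6* had a higher one (3.67 and 2.13). That of *Tbx6* did not pass without KO15, WT7 or WT34 of day 4 (differences 1.74, 1.81 and 2.53). Nor did it pass in the edgeR test without some day 3 libraries (adjusted p = 0.0531 to 0.0681). These were KO1 of either experiment, WT34 of experiment 1 and WT7 of experiment 2. On day 3 *T* was at a mean of 206 CPM in KO and 3.12 CPM in WT, so its effect dropped by 3.73 on the log2 scale to day 4 although its KO level did not fall. *Mixl1* (difference -2.78), *Sp5* (-2.63), *Nanog* (-2.72) and *Axin2* (-2.68) also had lower effects on day 4. On day 3 the means of *Axin2* were 87.1 CPM in KO and 14.4 CPM in WT, and the 2 genotypes then met on day 4. Within experiment 2, which held both days, the difference was -3.64 for *T*, -2.36 for *Axin2* and -1.92 for *Sp5*.

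The endoderm list went from 3 members higher on day 3 to 18 on day 4, with 14 of 24 members having a higher effect and none a lower one. *Sox17* had equal means on day 3 (3.05 CPM in KO, 3.1 in WT) and its effect grew by 3.44 on the log2 scale (3.75 within experiment 2). *Isl1* gained 5.60 (4.23 within experiment 2), *Gata1* 5.49 (5.44), *Foxa1* 4.40 and *Cdh2* 2.14 (1.69). *Foxc2* gained 5.74 over all libraries, and within experiment 2 the difference was 5.92 without passing (adjusted p = 0.0525), and without any 1 of 9 libraries of days 3 and 4 it did not pass either (0.0505 to 0.202). *Krt80*, *Krt8*, *Krt19* and *Klhl4* crossed sides: *Krt80* had means of 0.791 CPM (KO) and 2.27 CPM (WT) on day 3, and on day 4 it had 14.6 and 13.5 CPM in KO against 0.594 and 0.775 CPM in WT (difference 5.86, within experiment 2 5.39). *Krt80*, *Krt19* and *Klhl4* passed in opposite directions on the 2 days, and *Krt8* passed on day 4 only.

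Effects on neural genes went down over the same day. In the anterior neural list 12 of 32 members had a lower effect on day 4 than on day 3 and 1 a higher one. On day 3 *Sox2* had means of 39.6 CPM in KO and 126 CPM in WT, and its effect dropped by 2.67 on the log2 scale (within experiment 2 the difference was -2.81), that of *Sox1* by 3.50 (-4.30) and that of *Lrp2* by 2.40 (-2.60). The midbrain factors *En1* and *Pax2* had means under 1 CPM in both genotypes on day 3, and their effects differed by -7.44 and -6.84 between the days (-8.55 and -6.32 within experiment 2). Neuronal genes were already lower on day 3 at 13 of 31 members. Over all 31 members, the effect on day 4 was lower than on day 3 at 6 and higher at 2. *Elavl3* had a lower effect on day 4 (-2.06, within experiment 2 -1.98), which did not pass without KO1 or KO15 of day 4 (adjusted p = 0.0882 and 0.0997), and so had *Myt1l* (-3.32, within experiment 2 -3.17). *Tubb3* showed no difference between the days that passed (-0.24).

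From day 4 to day 5 the KO effect went up at 344 genes (1.59%) and down at 155 (0.718%), together 2.31%, while on day 5 itself 1294 genes were higher (5.99%) and 1238 lower (5.73%) in KO, together 11.7%. The number of genes with a changed effect depended on single libraries. Without the WT day 5 library of experiment 2, in which streak genes were high, 706 genes passed, against 499 with all libraries. Without any other single library of day 5 the count was 427 to 520, and without any single library of day 4 it was lower than 499. Within experiment 2, where day 5 had 1 library per genotype that is assumed to vary like the other groups, 245 genes went up and 235 went down, and 247 of these were among the 499. On day 5, 17 of 19 cardiac progenitor factors and 12 of 18 sarcomere genes were higher in KO, but the effect itself was higher on day 5 than on day 4 at only 5 and 6 of them, and lower at none. *Gata4*, *Gata6*, *Hand1*, *Myl7* and *Isl1* had no difference that passed, and within experiment 2 their differences were -0.28, -0.56, -1.57, -0.24 and -0.44. *Mef2c* had 0.547 and 0.307 CPM in KO on day 4, overlapping WT, and on day 5 a mean of 40.6 CPM in KO and 2.15 CPM in WT (difference 4.64). The difference did not pass within experiment 2 (3.10, adjusted p = 0.0861) or without WT7 of day 4 (4.12, adjusted p = 0.142). *Ttn*, the giant sarcomere protein gene, was on day 4 at 1.91 and 2.07 CPM in KO and 3.56 and 2.68 CPM in WT, and at 60.6 and 0.938 CPM on day 5 (difference 6.68).

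Some paraxial and cilium genes had a smaller effect a day later. Of the 19 paraxial members, 8 were higher on day 4 and 8 on day 5, and 4 had a lower effect on day 5 than on day 4. *Foxc2* did not differ between the days (-0.54), and on day 5 it was at 19, 31.3 and 51.2 CPM in KO and 0.606, 0.386 and 8.5 CPM in WT, the last of each from experiment 2. *Tbx6* had means of 1.35 CPM (KO) and 0.872 CPM (WT) on day 3 and of 1.42 and 2.73 CPM on day 5, so its high KO level was seen on day 4 only (difference of day 5 from day 4 -3.16, within experiment 2 -5.83). *Foxj1* went from 9.98 to 76.3 and back to 9.28 CPM in the KO means, with 6.43, 11.6 and 8.6 CPM in WT (difference -2.46, within experiment 2 -3.99). *Dll1* changed sides, higher in KO on day 4 and lower on day 5 (1.70 and -1.54, difference -3.23, within experiment 2 -4.30). *Snai1* lost its effect too (-1.81), but within experiment 2 the difference did not pass (-1.28, adjusted p = 0.116). *Cdh2* differed by -1.28 (-1.98 within experiment 2), and by -0.81 without the WT day 5 library of experiment 2. Its difference did not pass without KO1, KO15 or WT34 of day 4 either (-1.25, -1.32 and -1.15). Genes that passed on day 4 and in both differences, with an effect beyond those of days 3 and 5, numbered 48 among the higher and 41 among the lower genes. Both differences use the 4 libraries of day 4, so a deviation of these libraries enters all 3 tests. The higher ones included *Ifitm1*, *Rimbp2*, *Foxj1*, *Slit1*, *Upp1*, *Adam19*, *Arl4d*, *Kif27* and *Dll3*, and the lower ones *Grem1*, *Vstm2l*, *Spon1*, *Scube1*, *Nr2f2*, *Rbms3*, *Nkx6-1*, *Irs4*, *Sox2* and *Id2*. Of these, *Foxj1*, *Upp1*, *Grem1*, *Vstm2l*, *Sox2* and *Id2* passed both differences whichever single library was left out, and each of the others lost at least 1 of them. Within experiment 2, *Nr2f2*, *Nkx6-1* and *Rbms3* did not pass against day 3 (adjusted p = 0.347, 0.131 and 0.0521), and *Rbms3* and *Scube1* did not pass against day 5 (0.145 and 0.0869). *Nr2f2*, a nuclear receptor gene of mesenchyme and ventral forebrain, was on day 4 at 0.752 and 0.844 CPM in KO and 9.35 and 7.04 CPM in WT and at means of 17.2 and 22.2 CPM on day 5.

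*Hesx1* and *Six3* had higher KO effects on day 5 than on day 4. *Hesx1* was on day 4 at 0.752 and 0.537 CPM in KO and 11.6 and 15.8 CPM in WT, and on day 5 at means of 7.28 CPM in KO and 2.42 CPM in WT, passing in opposite directions (difference 6.03, within experiment 2 8.68). *Six3* followed (difference 2.76, within experiment 2 4.71), with a day 5 mean of 6.19 CPM in WT. In KO the day 5 libraries of experiment 1 held 11.2 and 10.5 CPM and that of experiment 2 held 48.5 CPM, so the KO mean of 23.4 CPM rests on the latter. *Sox2* remained lower in KO on day 5 with a smaller effect (-2.14, difference 2.18, within experiment 2 2.83), and *Sox1*, *Pax6* and *Lhx5* remained lower without a difference that passed.

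**Figure D2:**
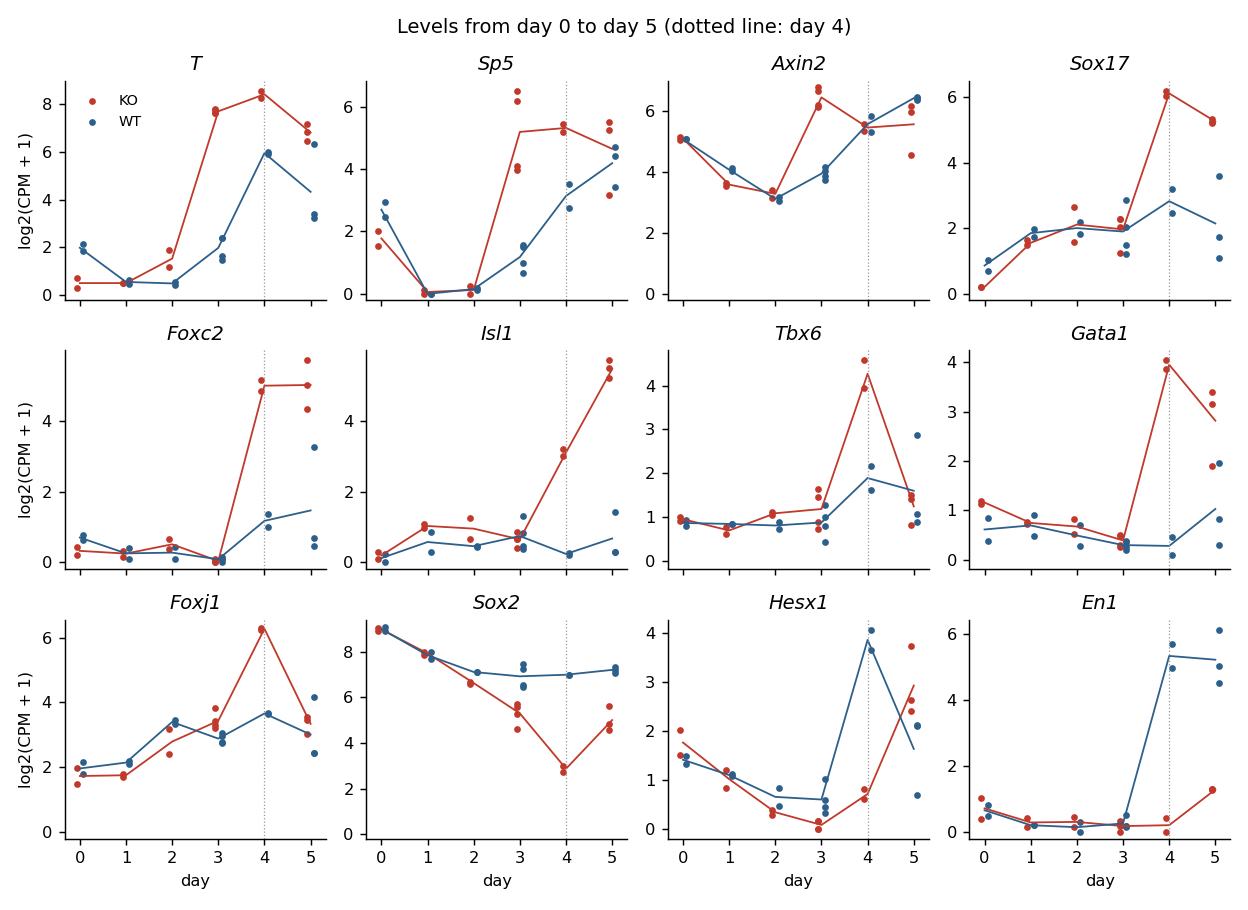
Expression of 12 genes from day 0 to day 5 as log2(CPM + 1), with 1 point per KO and WT library and a line through the mean of each genotype and day. The KO lines of *T* and *Axin2* separate from WT by day 3, those of *Sox17*, *Foxc2*, *Isl1* and *Gata1* on day 4, *Tbx6* and *Foxj1* peak in KO on day 4, and *Sox2* and *En1* are lower in KO on day 4.

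The gene lists of consecutive days overlapped in part. The days were separate libraries of the same lines. Of the 735 genes higher on day 4, 127 were also higher on day 3 (17.3% of the day 4 list and 28.2% of the day 3 list) and 459 on day 5 (62.4% and 35.5%), and 88 were higher on all 3 days. Of the 925 lower genes, 233 were also lower on day 3 (25.2% and 57.5%), 604 on day 5 (65.3% and 48.8%), and 161 on all 3 days. No earlier day from 0 to 3 showed the same direction for 591 of the higher (80.4%) and 674 of the lower genes (72.9%), and 233 (31.7%) and 244 (26.4%) passed in that direction on day 4 alone. Opposite calls were few, with 13 higher and 8 lower genes against day 3 and 4 and 12 against day 5.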

How the data were processed

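RNA of 36 mouse libraries had been sequenced by the authors as single-end reads with a stranded mRNA kit. According to the submitters' processing notes and the study's methods, reads were trimmed with Trim Galore 0.6.4 and quantified with Salmon 0.14.1 against GENCODE mouse transcripts (mm10), and the estimates were summed per gene with tximport. The deposited expected counts are these sums, 1 column per library and not scaled between libraries, with 73.8% of values whole. The deposited TPM values come from the same estimates, and entered 1 group of alternatives and the *Tet1* check. Salmon divides reads among similar transcripts, so close paralogs are uncertain.

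Counts were rounded, and edgeR's filter (minimum count 10, minimum total 15) left 21601 of 54281 genes. Every library column was matched to a sample. All 36 libraries entered 1 quasi-likelihood fit (edgeR 4.0.16, R 4.3.3) with 16 group means, a term for experiment 2 and 19 residual degrees of freedom, as the study compared genotypes within each day. P-values were adjusted by Benjamini-Hochberg over all tested genes, and the threshold was an adjusted p under 0.05 and more than 1 on the log2 scale. CPM values were scaled by TMM. Against 0 counts, folds are bounds from 3 counts over the group, and with 1 to 3 counts ratios carry 95% intervals. Both cover counting error only. Differences of the KO effect between days were contrasts of the same fit. Scripts were checked on simulated counts. GENCODE M21 gave positions for 99.7% of the identifiers.

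The genes named were marker genes, the 12 highest and 12 lowest passing genes without overlap and with at least 5 CPM, up to 4 members per list with the smallest p, the 8 highest and 8 lowest genes of each difference, and up to 10 genes per direction with a peak on day 4. Other list members that passed were named after their values were seen, as were *Zfp42*, *Klf4*, *Esrrb*, *Afp*, *Ttr* and the placental markers. The lineage comparison, gene lists and rules were chosen with earlier results of these data known. Alternatives were a larger fold (1.5 on the log2 scale), DESeq2 1.42.0, scaling by RLE, dropping the count filter or the experiment term, other sets of libraries, limma 3.58.1 on log2(TPM + 1) or log2(TPM + 0.1), a replicate block, and each library left out.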

Additional observations from a re-analysis of the deposited data

Results flagged for a closer look

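The KO effect of these genes differed between day 4 and a neighbouring day by the edgeR test of the difference itself (adjusted p under 0.05), with more than 3 counts in each genotype on both days. From day 3 to day 4 the difference on the log2 scale was -7.44 for *En1*, -6.84 for *Pax2*, -5.93 for *Wnt8b* and -4.67 for *En2*, all factors of the neural tube, and 5.09 for *Prss12*, 5.49 for *Gata1*, 5.60 for *Isl1* and 5.86 for *Krt80*. Within experiment 2 alone it was -8.55, -6.32, -4.91 and -4.49 for the first 4 genes, of which *Wnt8b* did not pass (adjusted p = 0.0699), and 4.72, 5.44, 4.23 and 5.39 for the others, which passed.

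From day 4 to day 5 the difference was -3.88 for *Enkur*, -3.79 for *Lefty2*, -3.55 for *Slc44a5* and -3.51 for *Gata1*, and 5.00 for the hyaluronan synthase gene *Has2*, 5.24 for *Pax2*, 6.03 for *Hesx1* and 6.68 for *Ttn*. Within experiment 2, with 1 library per genotype on day 5 that is assumed to vary like the other groups, the values were -4.68, -5.91, -5.96 and -6.12 and then 4.59, 5.75, 8.68 and 8.22, past the threshold at all 8. The WT day 5 library of experiment 2 held 79.8 CPM of *T* against 8.4 and 9.58 CPM in those of experiment 1. Without it the difference was -1.77 for *Lefty2* and -2.13 for *Gata1*, neither passing (adjusted p = 0.382 and 0.164), while *Enkur*, *Slc44a5*, *Has2*, *Pax2*, *Hesx1* and *Ttn* passed in the same direction. *Gata1* also lost its call without either KO or either WT library of day 4 (adjusted p = 0.0689 to 0.265) and without the KO day 5 library of experiment 2 (0.102) or the KO1 library of day 5 in experiment 1 (0.0563), *Lefty2* without WT7 (0.0505) or WT34 (0.0513) of day 4, *Enkur* without WT34 of day 4 (0.0505), and *En2*, in the difference from day 3, without WT7 of day 4 (0.0528).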

How the results depend on the processing

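On day 4, 1660 genes passed, and no called gene had the opposite call under any alternative run. Calls fell to 770 with limma on log2(TPM + 1), 1102 on log2(TPM + 0.1) and 706 without a filter, and the cause was not tested. With each library left out they numbered 1289 to 1379. For the difference from day 3 (930 genes) the count was 600 at a log2 fold change over 1.5, and 439, 501 and 387 with the same 3 limma settings, with 669 to 924 when a library was left out. For the difference from day 5 (499 genes) it was 331 at the higher fold, 807 with no count filter, 300, 217 and 276 with limma, and 294 to 706 without single libraries. The limma runs with a filter tested 17 of 19 cardiac progenitor factors and 20 of 31 neuronal genes, and the run without it tested all of them. Members of lists that passed on day 4 fell with limma from 11 to 5, 5 and 4 for cardiac progenitor factors, from 9 to 5 on log2(TPM + 0.1) for midbrain and hindbrain genes, and from 14 to 5, 8 and 5 for neuronal genes (9 at the higher fold). Without single libraries they were 6 to 10, 5 to 9 and 9 to 11, and 10 to 11 for streak, 8 to 11 for node, 16 to 18 for endoderm, 7 to 9 for paraxial and 10 to 11 for anterior neural genes. *Spon1* turned from -1.77 to 0.02 in the difference from day 3 with limma on log2(TPM + 1), with or without the filter.

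Lines of each genotype recur on other days, but the labels do not pair KO with WT lines. With the line within genotype as a replicate block, 1622, 880 and 440 genes passed, of which 1594, 857 and 428 were called in the fit without it. The line difference of day 4 correlated across genes with that of other days by 0.0466 to 0.0877 (KO) and 0.0226 to 0.111 (WT). *Hand1* and *Nkx2-5* lost their day 4 call under the block. DESeq2 called 1631, 976 and 562 genes. With 2 lines per genotype and 12335805 to 14179666 counts per library, genes under 1 CPM carry few counts, and their folds are the least precise.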
